A study of Mus musculus with 149 samples.

Results

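Cathepsins are the proteases of the lysosome, Lamp1 and Lamp2 are the main glycoproteins of its membrane, and the vacuolar proton pump (V-ATPase) acidifies its interior so that the proteases can work. Their genes were taken from the gene table of single mouse liver cells by symbol: every Cts gene named by a single further letter, Lamp1 and Lamp2, and every gene whose name begins with Atp6v or Atp6ap. This gave 45 genes of 20308 mouse genes, namely 18 cathepsins, 2 Lamp genes, 9 genes of the membrane-bound V0 sector of the pump, 13 of its ATP-splitting V1 sector and 3 accessory genes. Genes above 0 in at least 20% of the cells are called measured here; 26 of the 45 were (9 cathepsins, 2 Lamp, 5 V0, 8 V1 and 2 accessory genes), against 8813 of all mouse genes.

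The 149 cells came from the liver of 1 wild-type male C57BL/6 mouse of 8 weeks, perfused with a digestion medium and enriched for hepatocytes by slow spins, and they were caught on Fluidigm C1 chips of 3 trap sizes: large (17 to 25 µm, 80 cells), medium (10 to 17 µm, 30 cells) and small (5 to 10 µm, 39 cells). The labels give no treatment and no second animal, so cells are not replicates, each chip is treated as 1 sample, and every comparison below is a description with no p-value. All 149 cells had at least 3 of 9 matched hepatocyte markers at a value of 10 or more. Values are the authors' normalised expected counts; read depth cannot be recovered from them, and the synthetic ERCC spike-in RNA took a median of 3.66% of a large-chip cell's summed value, 82.7% on the medium and 82.8% on the small chip, with a median of 7389.5, 2306.5 and 3087 mouse genes above 0. Whether each chip was 1 run is not given in the sources used here, so an SD over 3 chips is the spread between chips only. Chip, cell size and this difference in spike-in share cannot be told apart. Cells whose spike-in share stayed under 50%, called low-spike cells below, numbered 64, 7 and 12, and 10, 6 and 4 cells held at least 3 markers of another liver cell type at 10 or more.

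The liver lobule runs from the portal tract, where blood enters, to the central vein, where it leaves, and hepatocytes along this axis divide the work of the organ between them. Lysosomes are known to digest proteins, lipids and worn organelles in hepatocytes, and they are especially active in Kupffer cells, the resident macrophages. Cathepsin C, also called dipeptidyl peptidase 1, removes dipeptides from the ends of proteins and is best known for activating the granule proteases of immune cells. The pump is built in tissue-specific forms, since several of its subunits are encoded by more than 1 gene.

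Many lysosomal genes are known to carry the E-box CACGTG near their start, the core of the sites bound by TFEB and related factors, so the stretches that hold it are shown for cathepsin, Lamp, V0 and V1 genes. RefSeq promoters (GRCm38.p6, from 250 bases before to 50 after the annotated start) were matched for 34 of the 45 genes. CACGTG reads the same on both strands, and the longer palindrome TCACGTGA contains it. The capitals mark CACGTG:
Lamp1 (chr8:13159088-13159163, + strand): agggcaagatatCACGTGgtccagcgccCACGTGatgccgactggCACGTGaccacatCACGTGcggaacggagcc
Ctsa (chr2:164833749-164833795, + strand): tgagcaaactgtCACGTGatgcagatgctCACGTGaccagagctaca
Ctsd (chr7:142387908-142387937, - strand): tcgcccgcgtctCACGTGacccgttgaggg
Atp6v0b (chr4:117887330-117887377, - strand): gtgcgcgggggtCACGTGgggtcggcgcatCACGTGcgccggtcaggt
Atp6v0d1 (chr8:105566050-105566079, - strand): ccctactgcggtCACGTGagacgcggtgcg
Atp6v0e (chr17:26676387-26676416, + strand): tagcgcgccgatCACGTGagcctctgttga
Atp6v1a (chr16:44139373-44139402, - strand): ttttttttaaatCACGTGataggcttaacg

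CACGTG was present in 9 of the 34 matched genes (26.5%), against 8.09% of all 27025 genes with a promoter in the table, and TCACGTGA in 5 of 34 (14.7%), against 1.12%. Among measured genes the shares were 9 of 20 (45%) against 12.1% for CACGTG and 5 of 20 (25.0%) against 2.41% for TCACGTGA. Lamp1 held 4 copies within its last 61 bases before the start, and Ctsa, Atp6v0b and Ctsd held 2 each, the second of Ctsd lying 245 bases before the start and not shown. Both Ctsa copies lay at a start 900 bases from the gene start of GENCODE M21, and the Ctsa promoter 1 base from it held none. The start used for Atp6v0e lay 13165 bases from its GENCODE gene start. The remaining genes with a match were Ctsl and Ctsf. These are matches of letters and not sites shown to be bound.

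The promoter of Ctsc, the gene set against the rest below, held neither sequence. The same was true of other measured genes, among them Lamp2, Ctsz and Atp6v0c. Its 250 bases before the start are shown for comparison with the E-box stretches:
Ctsc (chr7:88277835-88278084, + strand): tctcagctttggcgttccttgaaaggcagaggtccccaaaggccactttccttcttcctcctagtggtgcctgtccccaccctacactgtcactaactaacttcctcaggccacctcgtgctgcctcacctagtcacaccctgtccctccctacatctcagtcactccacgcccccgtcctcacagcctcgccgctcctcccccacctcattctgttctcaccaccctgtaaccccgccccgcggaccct

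Most cathepsins with a broad tissue range were found in most cells of the large chip, whereas the cathepsins known from placenta and from particular blood cells were listed at 0. Of the 45 genes, 34 were above 0 in at least 1 cell. Values above 0 in at least 50% of the cells were found for 26 of 45 genes on the large chip, against 33.7% of all genes, for 17 on the medium chip, against 10.1%, and for 15 on the small chip, against 10.4%. In every chip 12 genes reached it: Ctsa, Ctsb, Ctsc, Ctsd, Ctsh, Ctsl, Ctsz, Lamp1, Lamp2, Atp6v0c, Atp6v1g1 and Atp6v1h. Requiring a value of at least 10 left 6 and 4 genes on the medium and small chips, and the 12 low-spike cells of the small chip had 24. Shares of all genes are not given for these last counts, nor for the counts of 34 and 12 above. Such counts describe detection only and are not read as a trait of the group.

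Ctsl, which encodes the endopeptidase cathepsin L, was above 0 in 80 of 80 cells on the large chip (exact 95% Clopper-Pearson interval 95.5 to 100%), 24 of 30 on the medium (61.4 to 92.3%) and 30 of 39 on the small chip (60.7 to 88.9%). Such intervals cover counting error over cells only. Lamp2, which serves chaperone-mediated autophagy as well as the membrane, was above 0 in 80 of 80, 29 of 30 and 39 of 39 cells of the large, medium and small chips, the broadest detection of the group. Ctsb, the gene of cathepsin B, followed with 76 of 80, 26 of 30 and 35 of 39 cells. The aspartic protease gene Ctsd was above 0 in 72 of 80, 15 of 30 and 23 of 39 cells, and the serine carboxypeptidase gene Ctsa, whose product also protects other lysosomal enzymes, in 67 of 80, 16 of 30 and 22 of 39. Ctsc was above 0 in 56 of 80 (58.7 to 79.7%), 21 of 30 (50.6 to 85.3%) and 20 of 39 cells (34.8 to 67.6%). It was the only measured cathepsin with an equal share on the large and medium chips. Ctsf, the least detected of the 9 measured cathepsins, had 40 of 80, 8 of 30 and 5 of 39 cells.

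Among the rarer cathepsins, Ctss, the antigen-processing cathepsin S of macrophages, was above 0 in 2 of 80, 11 of 30 and 11 of 39 cells. Ctsk, known from osteoclasts, was above 0 in 3 of 149 cells and Ctse, an aspartic protease, in 1. Ctsg and Ctsw, known from neutrophils and cytotoxic lymphocytes, and Ctsj, Ctsm, Ctsq and Ctsr, known from rodent placenta, were at 0 in all 149 cells. A count of 0 in 149 cells allows up to 3 cells (2.01%) with a value above 0 by counting alone; it does not limit the share of cells that express the gene, since depth is unknown.

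The pump genes showed 1 prevailing form for most subunits with more than 1 gene. For subunit a of V0, the arm that joins the sectors, Atp6v0a1 was above 0 in 53 of 80, 10 of 30 and 12 of 39 cells, Atp6v0a2 in 17 of 80, 2 of 30 and 2 of 39, and the kidney form Atp6v0a4 in none. The fourth gene for this subunit, Tcirg1, carries another name and so is not among the 45. It was above 0 in 48.8% of large-chip cells. Per kilobase of transcript its large-chip mean was 3.69, against 1.52 for Atp6v0a1, and its median 0, against 0.574. Which form of subunit a prevailed thus depended on the measure. For subunit d, Atp6v0d1 was above 0 in 64 of 80, 15 of 30 and 11 of 39 cells, and Atp6v0d2, known from osteoclasts, in 7, 1 and 4 cells. For subunit e, Atp6v0e was above 0 in 68 of 80, 18 of 30 and 17 of 39 cells, and Atp6v0e2, known from brain, in 3, 1 and 1.

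The V1 sector gave the same pattern. Of the B subunits, which help to bind ATP, Atp6v1b2 was above 0 in 49 of 80, 10 of 30 and 10 of 39 cells and the kidney form Atp6v1b1 in none. Of the C subunits, Atp6v1c1 was above 0 in 58 of 80, 6 of 30 and 10 of 39 cells, and Atp6v1c2 in 7 large-chip cells only. Of the E subunits, Atp6v1e1 was above 0 in 70 of 80, 14 of 30 and 20 of 39 cells and the testis form Atp6v1e2 in none. Of the G subunits, Atp6v1g1 was above 0 in 69 of 80, 24 of 30 and 30 of 39 cells, the brain form Atp6v1g2 in 3, 2 and 0, and Atp6v1g3 in none. The accessory gene Atp6ap2, the prorenin receptor, was above 0 in 65 of 80, 14 of 30 and 22 of 39 cells, Atp6ap1 in 64, 16 and 18, and Atp6ap1l in none.

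**Figure D1:**
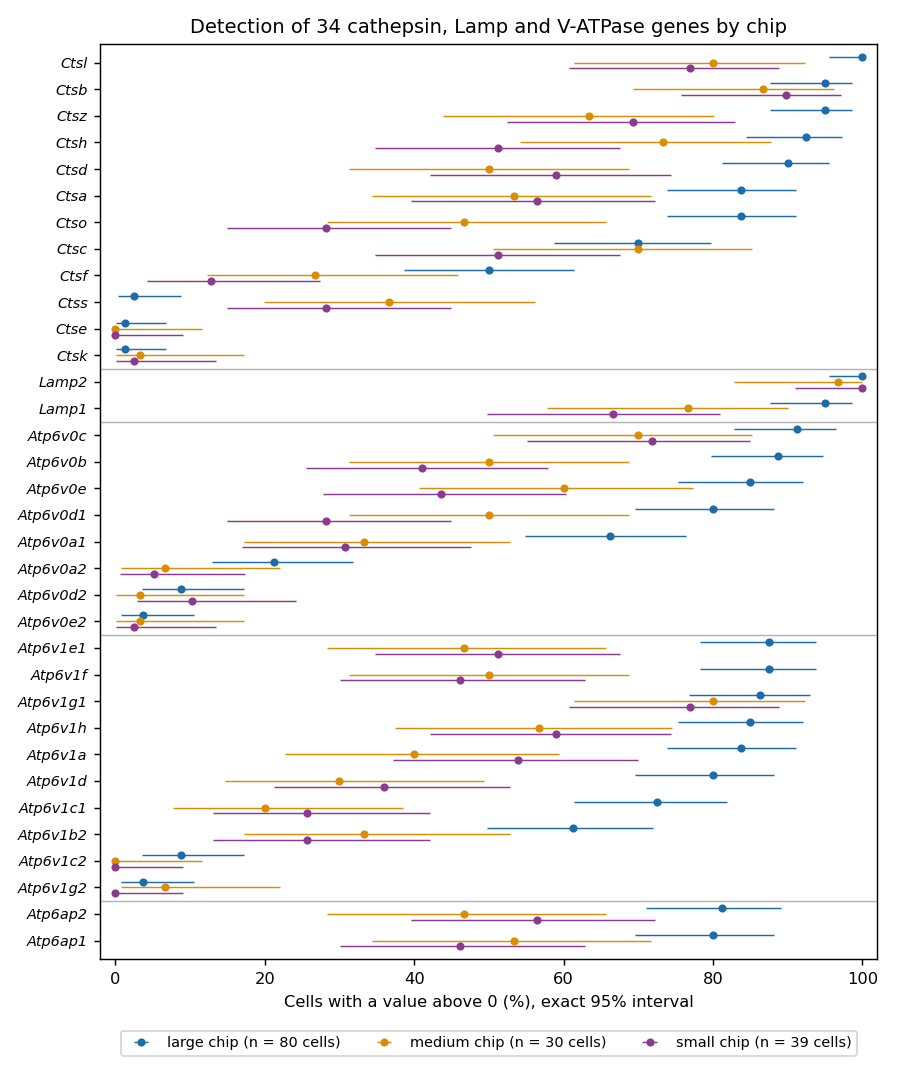
Share of cells with a value above 0 (x axis, percent, with exact 95% Clopper-Pearson intervals over cells) for the 34 genes above 0 in at least 1 cell (y axis, grouped from top to bottom as cathepsins, Lamp genes, V0, V1 and accessory genes), in the large chip (n = 80 cells), the medium chip (n = 30) and the small chip (n = 39). Ctsl and Lamp2 reached 100% of large-chip cells, Ctsc had the same share on the large and medium chips, and Ctss was above 0 in 2 large-chip cells and in 11 cells of each other chip.

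Levels were compared between genes only in the large chip and per kilobase of transcript, as the mean value over 80 cells divided by the median length of the gene's coding transcripts; these means include the 10 cells with markers of other types. Ctsl and Lamp2 led with 2075 and 549 per kb, and with the longest transcript of each gene they still led, with 281 and 332 per kb, in the other order. Without the 10 cells Ctsl had 1150 per kb and Lamp2 480, and with the longest transcripts 156 and 291, where Atp6v0c, at 168, lay above Ctsl; this comparison was added after the data were seen. Among the other cathepsins Ctsh, an aminopeptidase, had 323 per kb (150 with the longest transcript), Ctsz, a carboxypeptidase, 127 by both lengths, and Ctsc 58.6 (45.4). In V0 the proton-carrying ring subunit gene Atp6v0c was highest with 328 per kb (221), and Atp6v0a1 had the lowest mean of the 26 measured genes with 1.52 (1.45). In V1 Atp6v1f had 272 per kb (237), Atp6v1e1 228 (117) and Atp6v1g1 211 (211). Atp6v1f was highest by the mean over all cells, but without the 10 cells it had 160 per kb (140), against 234 (121) for Atp6v1e1 and 145 (145) for Atp6v1g1, so the order rests on those cells. The ATP-binding subunit genes Atp6v1a and Atp6v1b2 had 117 (24.7) and 5.96 (5.96), and Atp6v1a had 53.8 (11.4) without the 10 cells. The subunits of 1 complex thus had listed levels that spanned a wide range, and the order of Ctsl and Lamp2 depended on the length used.

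Within a gene the values spread widely between cells. On the large, medium and small chips Ctsl ran from 7.33 to 25262 (median 971), from 0 to 2350 (median 38.1) and from 0 to 17435 (median 26.0). Lamp2 ran from 4.98 to 6758 (median 1179), from 0 to 4610 (median 277) and from 6.81 to 6158 (median 123) on the same chips. Ctsb ran from 0 to 8391 (median 230), from 0 to 23099 (median 101) and from 0 to 29061 (median 41.3). For all 3 genes the ranges overlapped between chips, with upper ends that differed widely.

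Ctsc ran up to 750 on the large chip (median 18.3), up to 7702 on the medium (median 4.05) and up to 5393 on the small chip (median 2.97), each time starting at 0. Its highest cells lay in the chips with the lower medians. Between chips, mean values of the 26 measured genes went in both directions: 13 were higher in the large than in the medium chip, with a median log2 ratio of -0.02 (pseudocount 1), and 16 were higher in the large than in the small chip, with a median of 0.65. Among low-spike cells these counts were 13 and 10, with medians of -0.09 and -0.28, so the direction against the small chip turned with the cells used. The summed value of a cell, spike-ins included, had medians of 1817208, 5678144 and 5539884 on the large, medium and small chips. Levels were not brought to 1 total for this comparison. The same counts over all genes are not given here, so these directions are not read as a trait of the group.

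The columns of the deposited table are not in the order of the cell labels, and the 3 chips are interleaved. The landmark genes of the lobule show how the columns lie. In the large chip the periportal genes Hal, Sds and Cyp2f2 had Spearman rho values of -0.85, -0.83 and -0.81 with the column rank and the pericentral genes Cyp2e1, Oat and Cyp1a2 had 0.86, 0.81 and 0.78. The other chips followed less well: Cyp2f2, Hal and Sds had -0.66, -0.54 and -0.65 in medium-chip cells and -0.72, -0.50 and -0.53 in small-chip cells, but of the 6 pericentral landmarks Glul (-0.11) and Slc1a2 (-0.08) went the other way in medium-chip cells, where Oat had 0.07, and Gulo had 0.01 in small-chip cells. A negative rho below means higher toward the periportal end and a positive rho higher toward the pericentral end. The order was made from these same cells by the authors, and the genes that set it are not given in the sources used here, so whether any of the 45 genes took part is unknown. Position was measured within each chip. A gene is called graded if its 3 rho values shared a sign and had a mean of at least 0.2 in size, which sets a size and tests nothing.

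Toward the periportal end 7 of the 26 measured genes were graded, against 15.4% of all genes, and toward the pericentral end none, against 0.695%. The 7 were the cathepsin genes Ctsc, Ctsl, Ctsz and Ctsb and the V1 genes Atp6v1f, Atp6v1d and Atp6v1g1; no Lamp, V0 or accessory gene was among them. After Ctsc, Ctsl had rho values of -0.31, -0.36 and -0.29 from the large to the small chip, Ctsz -0.34, -0.23 and -0.32, and Ctsb -0.30, -0.30 and -0.06. Of the V1 genes, Atp6v1f had -0.23, -0.35 and -0.19, Atp6v1d -0.24, -0.28 and -0.14, and Atp6v1g1 -0.19, -0.14 and -0.30. The values of Ctsl, Ctsz and the V1 genes were thus shallow and negative in each chip, and that of Ctsb was near 0 in the small chip. Among low-spike cells Ctsl was steeper, with -0.46, -0.89 and -0.46. Ctsz (0.11) and Atp6v1g1 (0.29) were positive in the 7 low-spike cells of the medium chip. Among the genes that were not graded, Atp6v0a1 and Atp6v1b2 changed sign between chips, with -0.05, -0.45 and 0.10 and with 0.20, -0.43 and 0.11. The median of the mean rho was -0.13 over the 26 genes and -0.10 over all genes. Among low-spike cells 7 were graded toward the periportal end, against 12.9% of all genes, and 1, Ctso, toward the pericentral end, against 5.59%. These 7 were not the same genes: Ctsc, Ctsl, Atp6v1d and Atp6v1f stayed, Ctsb, Ctsz and Atp6v1g1 left, and Atp6v1c1, Atp6v1h and Lamp2 entered. With the number of genes above 0 held constant only Ctsc and Ctsl remained, against 6.51%. Leaving out the 20 cells with markers of other types gave 14, against 31.9%, and a landmark score as the axis gave 6, against 16.6%. Toward the pericentral end these 3 settings gave none, against 1.78%, 0.527% and 0.627% of all genes.

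The number of genes above 0 itself moved along the order, with a rho of 0.22, -0.41 and -0.20 on the large, medium and small chips, and the spike-in share with -0.37, 0.37 and 0.27. Their part in the shallow rho values was not tested. By group, the median of the mean rho was -0.12 for the 9 cathepsins, -0.13 for the Lamp genes, -0.14 for V0, -0.15 for V1 and -0.04 for the accessory genes, so no group as a whole lay far from the median of all genes.

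Ctsc lay apart from the others in the large chip, and less so in the medium and small chips. It had a rho of -0.77 on the large, -0.54 on the medium and -0.32 on the small chip (mean -0.54 ± 0.23, SD over 3 chips). The medians of the other 25 measured genes were -0.08, -0.14 and -0.13. In the large chip only 4 of 8813 genes lay lower than Ctsc (Hal, Sds, Hsd17b13 and Cyp2f2), and the lowest of the other 25, Ctsz, had -0.34. On that chip 4 of the 26 genes had a rho of -0.3 or lower, against 4.82% of all genes, and Ctsc alone had one of -0.5 or lower, against 1.04%, and of -0.7 or lower, against 0.113%. In the medium chip 94 of 8782 genes lay lower than Ctsc (1.07%), and in the small chip 781 of 8803 (8.87%), among them Ctsz and Lamp2.

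**Figure D2:**
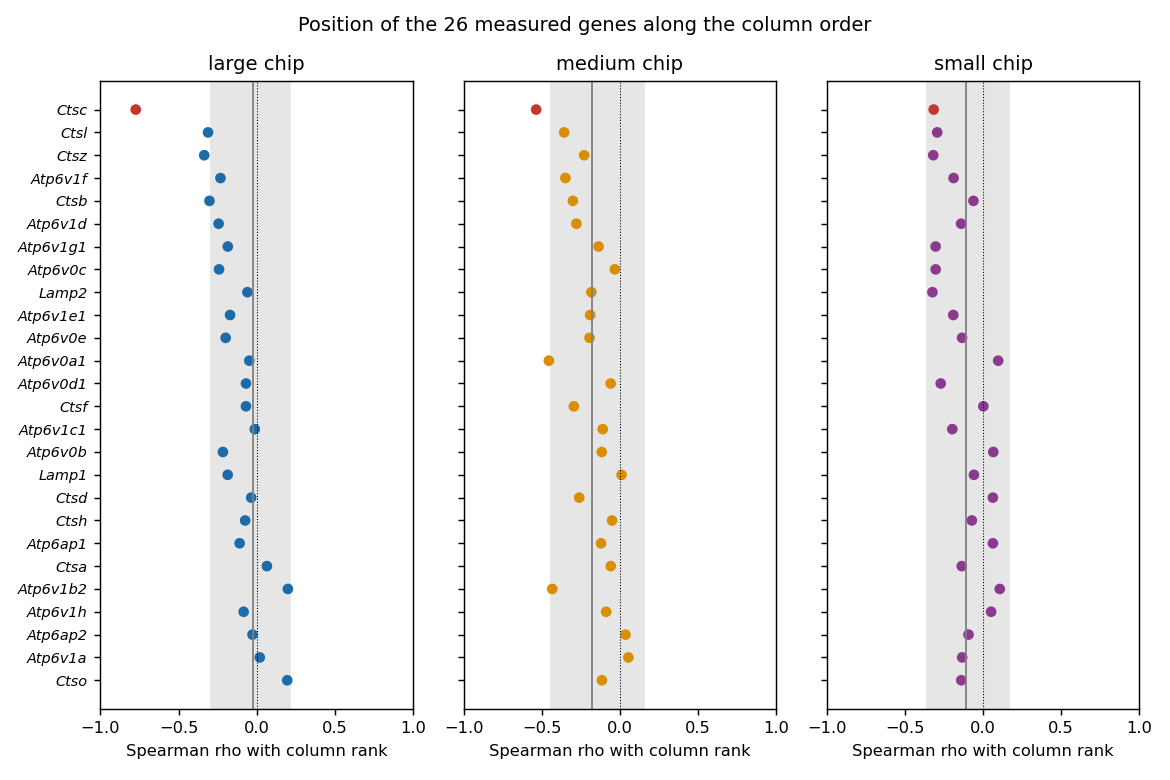
Spearman rho of each of the 26 measured genes with the column rank (x axis, negative toward the periportal end) in the large, medium and small chips, with genes from top to bottom by their mean rho. The grey band spans the central 90% of all measured genes and the grey line their median; Ctsc, in red, had -0.77, -0.54 and -0.32 and lay outside the band in the large and medium chips, and most of the other genes lay inside it.

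The Ctsc gene (ENSMUSG00000030560.17, mm10 chr7:88278085-88310888, + strand) was high in periportal cells of the large chip and at or near 0 in pericentral ones. Over 5 equal bins of 16 cells from the periportal to the pericentral end its mean was 319 ± 223, 293 ± 214, 116 ± 158, 1.14 ± 1.48 and 0.14 ± 0.34 (SD over cells), and the medians were 290, 243, 83.0, 0.49 and 0. A value of at least 10 was found in 15, 16, 10, 0 and 0 cells of the bins. The first 40 cells had 37 cells at 10 or more and a median of 235, and the last 40 had 4 such cells and a median of 0. The last cell at 10 or more had rank 46 of 80, and 2 of the first 40 and 22 of the last 40 cells were at 0.

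The third bin of the large chip had a median spike-in share of 57.7% and 3327 genes above 0, against 2.32 to 4.03% and 7260.5 to 7861 genes in the other bins. Among the 64 low-spike cells of the large chip, 33 of 35 cells in the first 40 ranks had Ctsc at 10 or more, against 2 of 29 in the last 40, with medians of 237 and 0. The rho of Ctsc in these cells was -0.77, and in the 7 and 12 such cells of the medium and small chips -0.64 and -0.34. The low-spike cells at the pericentral end, where Ctsc was at or near 0, had more genes above 0 than those at the periportal end, with medians of 7832 in the last bin and 7448 in the first.

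**Figure D3:**
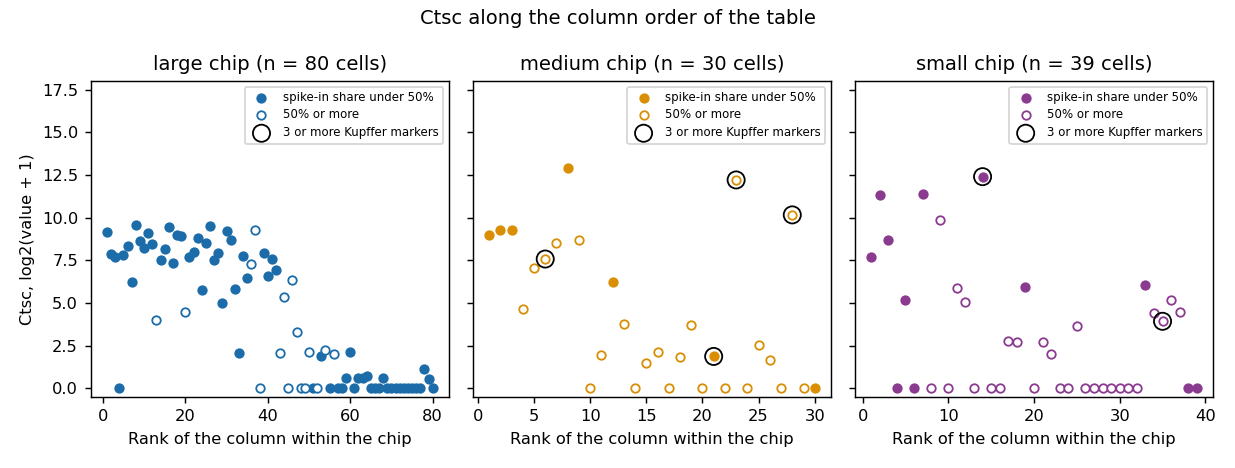
Ctsc as log2(value + 1) (y axis) against the rank of the cell's column within its chip (x axis, periportal end at the left) in the large (n = 80), medium (n = 30) and small chips (n = 39); filled points have a spike-in share under 50%, open points 50% or more, and black rings mark cells with 3 or more Kupffer cell markers at 10 or more. In the large chip no cell past rank 46 reached a value of 10; in the last bin of the small chip 5 of 7 cells did.

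In the medium chip Ctsc had medians of 349, 217, 2.17, 1.32 and 1.06 over 5 bins of 6 cells. In the small chip the medians were 119, 16.4, 4.27, 0 and 20.5 over bins of 8 cells, 7 in the last. The fall toward the pericentral end was thus seen in the first 4 bins of the small chip, with a higher last bin. The spike-in share rose along the order in both chips, with a rho of 0.37 and 0.27, and its part in these medians was not tested. With the number of genes above 0 held constant, Ctsc had a rho of -0.78, -0.42 and -0.25 from the large to the small chip. The other measured genes of the group then had medians of -0.20, 0.10 and -0.01. With a score of 12 landmark genes as the axis in place of the column order, Ctsc had -0.75, -0.56 and -0.04 on the 3 chips from large to small; over the other genes the small-chip median was then -0.08, so Ctsc was not lower than the rest there. Without the cells that held markers of other types, the rho of Ctsc with the column order was -0.82, -0.81 and -0.40. The other measured genes of the group then had medians of -0.15, -0.38 and -0.19. Over all genes the medium-chip median was -0.32 in this setting, against -0.18 with every cell. No gene of 8746 lay lower than Ctsc in the medium chip, and 474 of 8799 (5.39%) did in the small chip.

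The other graded genes were compared in the 64 low-spike cells of the large chip, cut into 5 bins of their own (13 cells each, 12 in the last), where Ctsc had medians of 293, 287, 94.0, 0 and 0. Ctsl had medians of 1372, 988, 1166, 1057 and 668 over the 5 bins, Ctsb had 367, 312, 280, 270 and 196, and Ctsz had 189, 163, 187, 135 and 71.2. All of the cells in the first and last bins were above 0 for these 3 genes. Of the V1 genes, Atp6v1f had medians of 158, 162, 120, 86.2 and 88.9, Atp6v1d had 100.2, 92.8, 68.4, 63.4 and 34.5, and Atp6v1g1 had 218, 216, 238, 211 and 144. Their medians in the last bin were lower than in the first and well above 0. Lamp2 had medians of 1219, 1212, 1468, 1255 and 1157 and ended near its start. Ctso, which encodes a cysteine protease with little known function, had 35.9, 32.5, 19.8, 85.4 and 93.8, higher at the pericentral end, with a rho of 0.29 in these 64 cells, 0.50 in 7 medium-chip cells and 0.07 in 12 small-chip cells. Over all cells its rho was 0.19, -0.12 and -0.14, so its direction depended on the cells used.

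**Figure D4:**
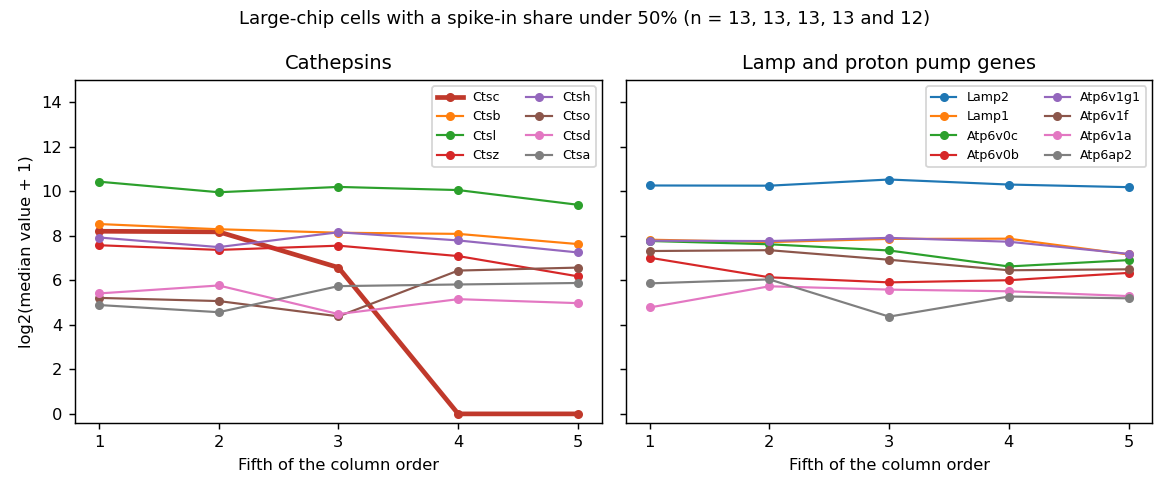
Median value of named genes, as log2(median + 1) (y axis), over 5 bins of the column order (x axis, periportal to pericentral) in the 64 low-spike cells (spike-in share below 50%) of the large chip; the left panel holds 8 cathepsin genes and the right panel 8 Lamp and proton pump genes. Ctsc fell to a median of 0 in the last 2 bins, and the other genes kept medians well above 0 in every bin.

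Over the 80 large-chip cells, the genes most like Ctsc by Spearman rho among 6839 genes above 0 in at least 50% of these cells were Cyp2f2 (0.73), a periportal cytochrome P450, Hsd17b13 (0.72), a lipid droplet enzyme, Arg1 (0.71), the arginase of the urea cycle, Hsd11b1 (0.71), which activates glucocorticoids, Hsd17b6 (0.69), a steroid dehydrogenase, and Cdh1 (0.69), the adhesion protein E-cadherin. In the 64 low-spike cells the same genes had 0.78, 0.73, 0.70, 0.73, 0.66 and 0.65. None of the 6 is a lysosomal gene. Cells in this comparison share library quality and the column order. Among the 45 genes the nearest was Ctsz with 0.45, at rank 149 of 6839, and the farthest was Ctso with -0.24.

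The 26 measured genes varied together to a moderate degree. Over the 80 large-chip cells the median rho of their 325 pairs was 0.31, against 0.23 for all pairs of genes above 0 in at least 50% of these cells. In the 64 low-spike cells the medians were 0.08 and 0.04. The nearest pairs were Ctsb with Lamp1 (0.64), the V0 genes Atp6v0b with Atp6v0e (0.63) and Atp6v0c with Ctsb (0.62); in the 64 cells Atp6v0c with Ctsb led with 0.56. The median rho of Ctsc with the other 25 genes was 0.18, against 0.25 to 0.39 for each of the others with the rest. In the 64 low-spike cells this order did not hold: Ctsc had 0.13 and the others ran from -0.03 to 0.20.

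Markers of other liver cell types moved with the highest values of several genes. Of the 12 Kupffer cell markers listed, 11 were matched; the number above 0 in any cell was 5 in the large chip and 11 in each of the others, and their summed value reached 494, 73827 and 100670 on the large, medium and small chips, each time starting at 0. At least 3 of them at 10 or more were found in 6 cells, 4 of the medium and 2 of the small chip. Ctss was at 18755 in small-chip cell 1, 9929 in medium-chip cell 4, 7587 in medium-chip cell 1, 140 in medium-chip cell 23, 26.9 in small-chip cell 32 and 0 in medium-chip cell 21. Of the other 143 cells, 2 had Ctss at 10 or more, at 206 and 10.3. The cell at 206, medium-chip cell 25, held 2 Kupffer markers. The 6 cells held at least 6 hepatocyte markers each.

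Ctsb was also high in 3 of these cells, with 29061, 23099 and 9189 in small-chip cell 1 and medium-chip cells 1 and 4, against a median of 182 and a highest value of 12694 over the 143 cells with fewer Kupffer markers. That value lay in small-chip cell 39, which held 12 endothelial markers and 0 Kupffer markers. Ctsc was at 5393, 4719 and 1141 in the same 3 cells, at 189, 14.2 and 2.64 in the other 3, and at a median of 3.72 in the 143 cells. High Ctsc was also found without these markers: medium-chip cell 18 had 7702, small-chip cell 31 had 2648 and small-chip cell 36 had 2533, each with 0 Kupffer markers at 10 or more and with Cyp2f2 at 8969, 3260 and 6276. The summed mouse values of these 3 cells were 3254524, 2767153 and 3575246, and the median sum of a large-chip cell was 1817208 with spike-ins. Large-chip cells had at most 2 Kupffer markers at 10 or more, with a summed marker value of up to 494. The part of Kupffer cell RNA in the Ctsc values was not tested.

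The highest Ctsl values lay in cells with another marker set. At least 3 of 12 endothelial markers at 10 or more were found in 11 cells, 7 of the large, 1 of the medium and 3 of the small chip; the summed markers ran from 0 to 60134, 1399 and 29698. The 4 cells with 11 or 12 of the markers had Ctsl at 25262, 20205, 16964 and 17435. The 7 cells with 3 to 10 markers had 192 to 1189, and the highest value in the other 138 cells was 6655. Lamp2 ran from 2064 to 6758 in those 4 cells, against a median of 939 in the 138 cells. The part of RNA from a second cell in these values was not tested.

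**Figure D5:**
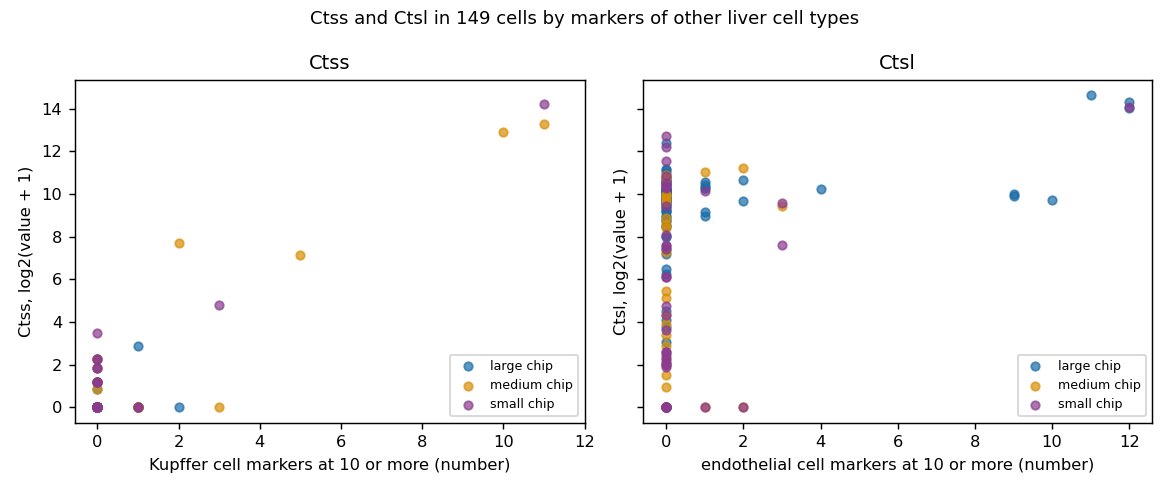
Ctss (left) and Ctsl (right) as log2(value + 1) (y axis) in each of 149 cells against the number of Kupffer cell or endothelial cell markers at a value of 10 or more in that cell (x axis), coloured by chip. The 3 highest Ctss values lay in cells with 10 or 11 Kupffer markers, and the 4 highest Ctsl values in cells with 11 or 12 endothelial markers.

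Across the group, the highest value of a gene lay in 1 of the 20 cells with markers of another type for 22 of the 26 measured genes (84.6%), against 46.4% of all 8813 measured genes; these cells were 13.4% of the 149. The exceptions were Ctsc, Ctsf, Ctsz and Atp6v0c. Without the 20 cells the highest Ctsb value was 2222 and the highest Ctsl value 6655.

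Other lysosomal genes were listed by role, and over all genes 15.4% were graded toward the periportal end and 0.695% toward the pericentral end. Of 29 measured hydrolases 6 were graded toward the periportal end and none toward the pericentral end. They were led by Gusb, the beta-glucuronidase, with a mean rho of -0.36 ± 0.15 (SD over 3 chips), and Gm2a, the activator of ganglioside breakdown, with -0.32 ± 0.15 and -0.49 in the large chip. Of 12 measured membrane proteins 1, the transporter gene Mfsd8, was graded, toward the pericentral end (0.22 ± 0.17). Of 10 sorting and control genes Lamtor2 and Lamtor5, parts of the scaffold that recruits the kinase mTORC1 to lysosomes, were graded toward the periportal end (-0.27 ± 0.12 and -0.20 ± 0.11). None of 2 measured cathepsin inhibitors and none of 8 genes tied to pump assembly or regulation was graded. The large-chip rho of Gm2a was the lowest in these lists, against -0.77 for Ctsc.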

How the data were processed

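The labels put each of 149 cells of 1 mouse on a chip by trap size, and the analysis used all of them. Per the submitters' processing notes, CASAVA 1.8.2, Bowtie 0.12.9, RSEM 1.2.3 and mm10 were used. The authors deposited 1 table of normalised expected counts, used here as a signal per gene and cell; its name mentions SCnorm and WaveCrest, and the labels describe neither. The low values of each cell had more than 1 step size, so whole reads and depth could not be recovered, and 92 spike-ins were left out of gene counts. No column was left out. The genes, lists and comparisons were chosen with earlier results of these data known.

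Spearman rho with column rank was computed for every gene within each chip. Levels per length used GENCODE M21 transcripts; some genes have transcripts of very unequal length. Genes were named by rule: Ctsc and the Lamp genes, the highest levels per length, the extreme mean rho values, paired pump isoforms, the 6 nearest genes to Ctsc and the leading genes of each lysosomal list; single cells were chosen after their values were seen. No doublet caller was run. Reads of the related placental cathepsins may be split by counting. Alternatives changed the correlation, scaling, cells, chips, axis and limits. Methods were tested on simulated data. Software was scipy 1.17.1, numpy 2.4.6, matplotlib 3.10.9 and pandas 2.3.3 under Python 3.11.15.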

Additional observations from a re-analysis of the deposited data

How the results depend on the processing

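The difference between the rho of Ctsc and the median of the other measured genes, as a mean over chips, was -0.42. It kept its sign under all 10 alternatives run and ranged from -0.54 to -0.29, within the SD over chips, which is a wide limit. In the small chip alone it was 0.04 with the landmark score as the axis. The mean rho of Ctsc ran from -0.67 to -0.43. Ctsc and Ctsl were graded in 10 of 10 alternatives, Ctsz in 8, Atp6v1f in 7, Atp6v1d in 6, and Ctsb and Atp6v1g1 in 3 each. With the number of genes above 0 held constant, Ctsl lay at the limit, with a mean rho of -0.201 and -0.02 in the medium chip. With the landmark score as the axis, Ctsc had -0.04 in the small chip. The count graded toward the periportal end (7) was 4 and 3 with Pearson r on log2(value + 1) and log2(value + 0.1), 2 with the number of genes above 0 held constant, 14 without cells holding markers of another type, and 13 and 2 with a rho limit of 0.1 and 0.3. The pericentral count (0) was 1 in cells with a low spike-in share. The median rho (-0.13) was -0.064 with the number of genes held constant, -0.16 in low-spike cells, -0.23 without cells of other types and -0.16 in the medium and small chips alone. The number detected in at least 50% of the cells was 6 in the medium chip (main 17) and 4 in the small chip (main 15) at a limit of 10, and 24 in low-spike cells of the small chip. The cause was not tested, except that the rho limits act by their own construction. Shares of all genes are not given for the Pearson settings, the rho limits of 0.1 and 0.3 or the changed detection settings. Those counts show only how far the calls moved. No called result reversed in its mean over the chips used. No paired analysis was possible because the cell numbers in the titles only name cells, and no result comes from a test. Depth is unknown, 1 mouse gives no biological error, and medium- and small-chip values rest on few cells with little mouse RNA.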

Other observations

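A large-chip cell near the periportal end, cell 24, held 5 of 6 bile duct markers at 10 or more and 9 hepatocyte markers. It had Ctsc at 0 and Cyp2f2 at 3459, and it had Ctsb at 5314, Ctsd at 899 and Atp6v0d1 at 1318, the highest value of that gene. It also held the highest value of Atp6v0e2, at 938. Among the 35 low-spike cells in the first 40 ranks of the large chip it was the only 1 with Ctsc at 0. The other 2 cells with at least 3 bile duct markers, large-chip cells 47 and 71, had 3 each and had Ctsc at 206 and 237. These cells were singled out after their values were seen.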
